A study of Mus musculus with 12 samples.

Results

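Open chromatin was described around 10 genes of the AP-1 and ATF families of transcription factors, Atf3, Jun, Junb, Jund, Fos, Fosb, Fosl1, Fosl2, Atf4 and Atf5, in mouse dorsal root ganglia. These ganglia contain sensory neurons that send axons into the sciatic nerve. Glia that wrap the neurons and their axons, blood vessels and immune cells are also present. The members were chosen by name out of 21887 protein-coding genes, and every ATAC-seq summit inside a member or within 50 kb of either end was taken, which gave 326 of 155267 deposited summits. ATAC-seq marks open DNA by the insertion of sequencing adapters by a transposase, and a summit is the point of strongest signal within a called peak.

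The 12 libraries formed 4 groups of 3: wild type (Silc1+/+) after sham operation, wild type after injury, Silc1-/- after sham operation and Silc1-/- after injury. Silc1 is a long noncoding RNA, and the injury was a crush of the sciatic nerve at the thigh. Each library came from 6 lumbar ganglia extracted together, so a site open in fewer cells and a site less open in each cell cannot be told apart. The labels name C57black6 Ola HSD males and other strains bred on site without tying them to the groups, and they state neither age nor the time from operation to dissection. For each group 1 list of summits was analysed, so there is no spread between animals, no difference between groups was tested, and each value below belongs to 1 list. Where 4 values follow each other without names, they stand for wild-type sham, wild-type injured, Silc1-/- sham and Silc1-/- injured ganglia, called list order below.

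AP-1 is a family of dimers built from Jun proteins (Jun, Junb, Jund) alone or with Fos proteins (Fos, Fosb, Fosl1, Fosl2), and all of them bind DNA through a basic leucine zipper. Atf3, Atf4 and Atf5 share this fold and can pair with Jun or C/EBP proteins, and Atf4 is the effector of the integrated stress response. Atf3 and Jun are long known as markers that are switched on in sensory neurons after their peripheral axon is cut or crushed, and Fos and Junb are immediate-early genes of many cell types.

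In list order there were 27279, 43841, 48332 and 35815 summits, and sequencing depth is unknown. Gene-end summits, meaning summits within 1 kb of either end, were found for 5 to 8 of 10 sensory neuron markers and for 2 to 5 of 8 Schwann and satellite glia markers, depending on the list. Over all protein-coding genes the share ran from 45.6% to 51.9%. Of 8 macrophage markers 1 had such a summit, in wild-type injured ganglia, and the neuronal marker Prrxl1 and the glial markers Sox10 and Fabp7 had none in any list. Neutrophil markers had gene-end summits at 3, 4, 1 and 1 of 6 genes in list order. Of 12 genes of unrelated tissues, 0 or 1 had one in each list.

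The starts of 8 of these genes held summits in every group. A summit lay within 1 kb of a gene end for 9, 10, 9 and 9 of the 10 members in list order, where the shares over all protein-coding genes were 46.2%, 51.9%, 50.9% and 45.6%. For 8 of 10 this held in all 4 lists, against 40.8% of genes; Jund lacked one in wild-type sham and Fosl1 in both Silc1-/- lists. Of the 9 members with an annotated start in the RefSeq promoter table, 8 had a summit within 1 kb of it in each list, against 49.6%, 54.8%, 53.8% and 48.6% of 17492 coding genes. The same 8 had one in all 4 lists, against 44.4%. Jund was the exception and is described with the Jun genes.

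Promoters of 5 members are shown because they hold the short core of the cAMP response element, the site bound by CREB and ATF dimers. They run from 250 bases before to 50 bases after the start in RefSeq (GRCm38.p6, the build that mm10 names), 5′ to 3′ on the strand of the gene, and capitals mark TGACG or its reverse complement CGTCA. The Atf3 promoter is chr1:191183284-191183583 (minus strand), Junb chr8:84978699-84978998 (minus), Fos chr12:85473640-85473939 (plus), Fosb chr7:19309996-19310295 (minus) and Atf4 chr15:80254934-80255233 (plus).
Atf3: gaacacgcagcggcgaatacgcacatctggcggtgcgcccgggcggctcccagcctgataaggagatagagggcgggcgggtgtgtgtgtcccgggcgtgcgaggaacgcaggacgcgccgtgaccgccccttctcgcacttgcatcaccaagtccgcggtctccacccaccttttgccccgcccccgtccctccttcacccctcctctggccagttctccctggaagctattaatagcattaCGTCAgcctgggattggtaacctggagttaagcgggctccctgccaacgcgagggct
Junb: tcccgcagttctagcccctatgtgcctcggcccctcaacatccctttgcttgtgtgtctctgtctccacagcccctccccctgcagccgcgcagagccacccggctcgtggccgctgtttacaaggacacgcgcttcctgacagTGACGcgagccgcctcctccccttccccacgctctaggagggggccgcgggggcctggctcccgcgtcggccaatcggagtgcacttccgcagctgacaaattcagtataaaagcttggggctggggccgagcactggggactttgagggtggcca
Fos: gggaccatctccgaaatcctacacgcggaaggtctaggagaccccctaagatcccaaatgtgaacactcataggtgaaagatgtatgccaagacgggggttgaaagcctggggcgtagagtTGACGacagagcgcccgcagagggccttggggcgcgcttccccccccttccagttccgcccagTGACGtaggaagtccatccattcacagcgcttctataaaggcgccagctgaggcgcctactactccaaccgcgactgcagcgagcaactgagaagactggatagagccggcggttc
Fosb: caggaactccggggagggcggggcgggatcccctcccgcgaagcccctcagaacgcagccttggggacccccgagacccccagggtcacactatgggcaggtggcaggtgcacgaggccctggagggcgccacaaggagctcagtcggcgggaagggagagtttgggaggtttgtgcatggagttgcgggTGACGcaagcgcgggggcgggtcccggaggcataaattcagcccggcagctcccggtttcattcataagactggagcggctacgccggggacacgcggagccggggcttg
Atf4: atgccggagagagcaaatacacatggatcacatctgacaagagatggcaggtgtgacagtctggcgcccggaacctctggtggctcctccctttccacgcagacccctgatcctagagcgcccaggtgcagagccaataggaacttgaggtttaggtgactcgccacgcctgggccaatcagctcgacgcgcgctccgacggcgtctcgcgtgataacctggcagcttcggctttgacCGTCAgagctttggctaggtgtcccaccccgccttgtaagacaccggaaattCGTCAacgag

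The core TGACG, searched on both strands, was found in 5 of the 9 members with a promoter in the table. It was found in 26.2% of the 17492 coding genes and in 39.8% of the 7762 coding genes with a start summit in all 4 lists. Neither the full element TGACGTCA nor the AP-1 site TGANTCA nor the C/EBP-ATF element TGATGNAAT nor the CArG box of serum response factor was found in any member promoter; TGACG is part of TGACGTCA. Among coding genes 2.54% held TGACGTCA, 8.12% TGANTCA, 0.926% TGATGNAAT and 1.76% a CArG box. These are matches of letters in a window of 300 bases and not measured binding sites.

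Summits lay close to the core in several promoters. Positions are given from the start, which is 0, with negative numbers upstream. The Atf3 match lies at -7 to -3, and the nearest summit was 13, 162, 129 and 146 bp away in list order. The Fos match at -66 to -62 had a summit 57, 57, 59 and 55 bp away, and a further match lies at -129 to -125. For Junb, with its match at -106 to -102, the distances were 82, 34, 12 and 77 bp. At Fosb the match at -60 to -56 lay 233 to 297 bp from a summit, the farthest of the genes shown. The Atf4 match at -12 to -8 lay 71, 43, 72 and 23 bp from a summit, and a further match was found at 40 to 44.

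Most summits near the members lay outside them. Summits within 200 bp of the next were joined to loci, and the 326 summits formed 129 loci of 78381 in the whole series. Of these, 19 lay within 1 kb of an end of the member and 5 inside it, 49 lay at the end of another gene, 26 inside another gene and 30 in intergenic sequence. The neighbourhoods of Fosb (23 loci), Junb (19) and Fosl1 (18) were the most crowded, and those of Atf4 (7), Jun (8) and Fosl2 (9) the least. A summit near a member is therefore not assigned to that member by these data. In mm10 the members lie at chr1:191170296-191183333 (Atf3), chr4:95049036-95052222 (Jun), chr8:84976909-84978748 (Junb), chr8:70697739-70700616 (Jund) and chr12:85473890-85477274 (Fos). The others lie at chr7:19302696-19310118 (Fosb), chr19:5447698-5455938 (Fosl1), chr5:32136472-32157840 (Fosl2), chr15:80255184-80257545 (Atf4) and chr7:44812256-44816658 (Atf5).

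**Figure D1:**
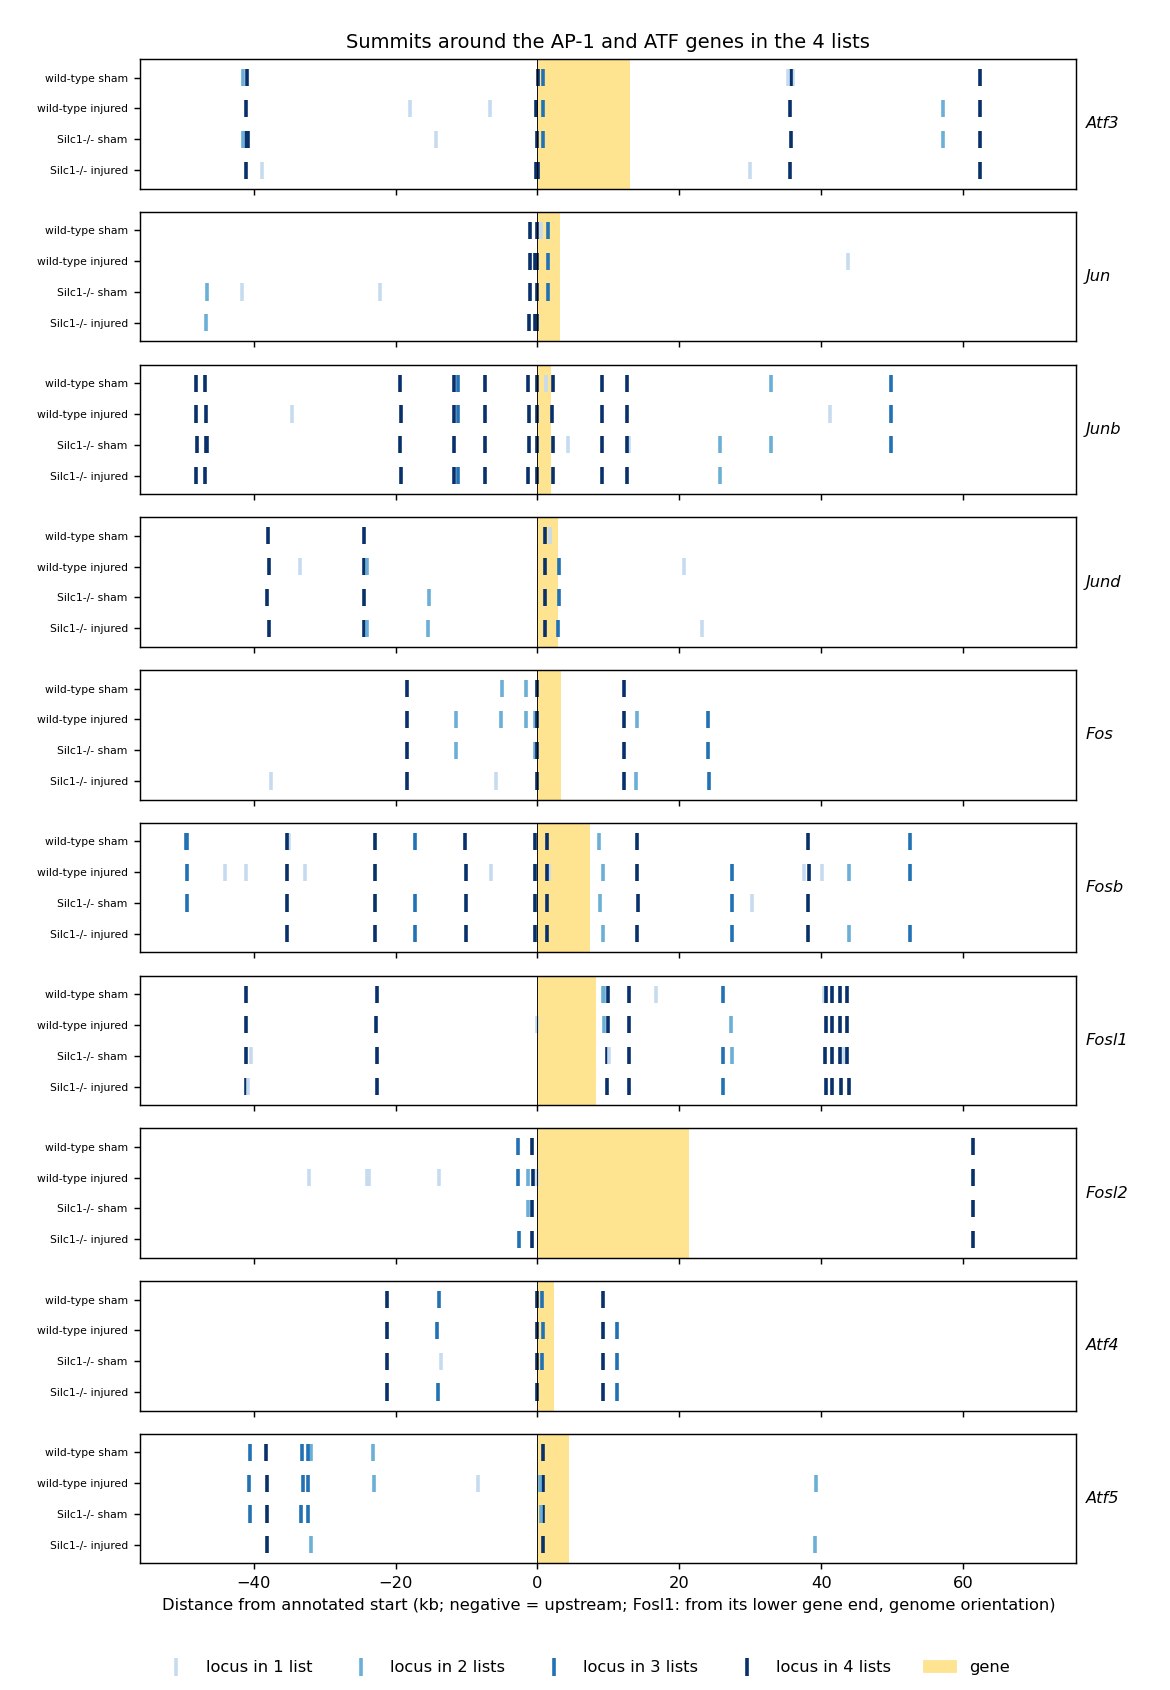
Positions of summits around each member in the 4 lists, as distance from the annotated start in kb (for Fosl1, from the lower-numbered end of the gene), coloured by the number of lists that hold the locus; the yellow band is the gene. Dark marks line up across all rows at the starts of most members, and pale marks of a single list are seen upstream of Fosl2 in the wild-type injured row.

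Many loci around the members were in every list; the difference from other loci was not tested. Of the 129, 44 (34.1%) were in all 4 lists, against 20.2% of the 63528 loci within 50 kb of any protein-coding gene and 18.3% of all loci. Loci of 1 list made up 34.9% around the members and 50.9% near coding genes. The share in all 4 lists ran from 20.0% at Atf5 to 52.6% at Junb. It was 9 of 19 at member ends, 20 of 49 at ends of other genes and 7 of 30 in intergenic sequence. Summits of a shared locus lay within a median span of 63 bp around the members and of 81 bp over all 14347 loci in 4 lists.

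**Figure D2:**
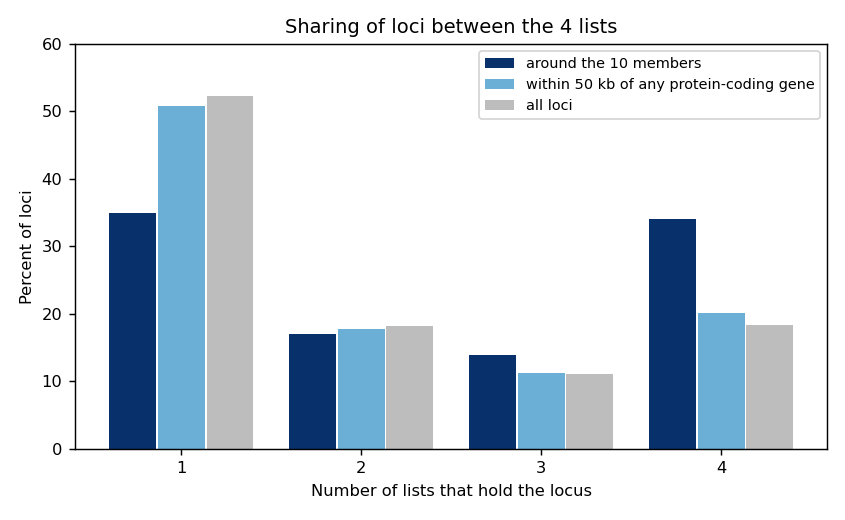
Percent of loci held by 1, 2, 3 or 4 lists, for the 129 loci around the members, for loci within 50 kb of any protein-coding gene and for all loci. The members have the largest bar at 4 lists (34.1%) and the smallest at 1 list (34.9%).

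Atf3 had its start open in every list but with different rank. The score of a summit is the authors' own, on a −log10 scale of p or q, and it grows with depth; it is used here to describe and rank summits within a list. At the start the best summits lay at 8, -167, -134 and -188 in list order, with scores of 3.54, 15.6, 15.4 and 13.8. To set lists side by side, scores were ranked over the 14347 loci that all 4 lists hold. The Atf3 start stood at percentile 7.47, 44.6, 57.0 and 67.1 of them in list order. Wild-type sham was thus the low list, and Silc1-/- sham ganglia lay above wild-type injured ones. The summits of this locus spanned 329 bp, the widest of the 44 shared loci around the members, where the median was 63 bp. Its ranks may therefore compare different summits.

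Inside Atf3, a locus at 743 was held by wild-type sham (score 4.17), wild-type injured (6.75) and Silc1-/- sham (3.11) but had no Silc1-/- injured summit nearer than 602 bp. Farther out, all 4 lists held a site at 62.3 kb at the end of the noncoding gene Gm46178, one at -41.1 kb at the start of D730003I15Rik and an intergenic one at 35.6 kb. The intergenic site had scores of 3.54, 2.57, 5.67 and 9.74, and in Silc1-/- injured ganglia alone it was the highest-scoring Atf3 locus away from gene ends. Next to the D730003I15Rik site, at -41.6 kb, a weaker locus was in both sham lists alone (scores 3.20 and 7.13), 465 bp from a summit of an injured list. Distances to the summits of other lists are counted from the best summit of a locus. Of the 14 Atf3 loci, 7 were in a single list, and 4 of those 7 were single summits upstream of the start, 2 of them in wild-type injured (-6.71 and -18.0 kb, scores 3.33 and 3.32), 1 in Silc1-/- sham and 1 in Silc1-/- injured ganglia.

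The Jun genes encode the partners that every AP-1 dimer contains. The Jun start held the strongest summit of its neighbourhood in all lists, at -124, -66, -66 and -61, with scores of 21.7, 31.4, 20.9 and 20.5. Its percentile among the shared loci was 75.4, 71.9, 70.8 and 82.3, a narrow range. A companion at -1117, inside the antisense gene Junos, was also in all 4 lists, with scores of 6.20 to 10.3. A locus at 1480 in the Jun body was missing from Silc1-/- injured ganglia alone, where the nearest summit was 1541 bp away; its scores were 5.96, 8.18 and 6.46 in the other lists. Sites at -22.2 and -41.6 kb were in Silc1-/- sham ganglia only, and 1 at -46.7 kb was in both Silc1-/- lists alone (6.39 in sham, 2.47 in injured), 7218 bp from any wild-type summit. All 3 lie in Junos.

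Junb, an immediate-early Jun protein, lay among constant sites. Its start had summits at -22, -70, -92 and -27 in list order, with scores from 8.88 in Silc1-/- injured to 20.6 in wild-type injured ganglia. A site just past the other end, 2084 from the start, scored higher than the start in every list (20.1, 24.6, 18.9 and 16.4). Both sites were thus open in all groups, and so was a site at -1266, whose 4 summits lay within 8 bp. An intergenic site at -7396 was in every list as well (3.84, 10.2, 3.63 and 4.28), and the other shared sites were at ends of or within neighbours, among them Prdx2, Hook2, Rnaseh2a and Trir. A site at 12.6 kb, inside Rnaseh2a and by one of its annotated starts, had scores of 13.8, 40.4, 24.5 and 8.85. It was the highest-scoring site away from gene ends in wild-type injured and Silc1-/- sham ganglia. In the other lists this was the Hook2 site at -11.7 kb (17.2 in wild-type sham, 14.4 in Silc1-/- injured). That site lay 126 bp from an annotated Hook2 start. The Rnaseh2a site's percentile was 57.9 and 80.8 in wild-type sham and injured but 76.6 and 46.7 in Silc1-/- sham and injured ganglia. One weak locus was in both sham lists only, at 33.0 kb in Mast1 (2.92 and 1.94), and 1 in both Silc1-/- lists only, at 25.7 kb in Rtbdn (7.16 and 3.09).

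Jund, which is expressed in most resting cells, differed from the other members at its annotated start. No list had a summit within 1 kb of that start, and the sequence there had a GC content of 46.7% and an observed-to-expected CpG ratio of 0.184, the lowest of the member promoters, whose medians were 62.3% and 0.755. The main summit lay inside the gene at 1072, 1125, 1068 and 1118 in list order, with scores of 33.9, 55.8, 27.4 and 25.5. Its percentiles were 88.8, 90.4, 81.0 and 88.7, above those of the other members' start loci in every list but Silc1-/- sham, where the Atf4 start stood at 85.9. At the far end of Jund, which it shares with Iqcn, a locus at 3023 was in wild-type injured (17.2), Silc1-/- sham (10.9) and Silc1-/- injured ganglia (5.15), and the nearest wild-type sham summit was 1224 bp away. A locus near Lsm4 at -24.1 kb was in both injured lists only (4.76 and 2.74), 364 bp from a summit of a sham list, and 1 at -15.4 kb was in both Silc1-/- lists only (2.02 in sham and 3.67 in injured).

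Fos proteins cannot pair with themselves and act through Jun partners. Among the start loci Fos had the closest summits, within 4 bp, at -7, -7, -5 and -9 in list order, with scores of 7.06, 18.7, 12.9 and 8.28. Its percentile was 28.7, 51.3, 48.7 and 44.8, so wild-type sham was again the lowest list. An added summit just upstream, at -305, was found in wild-type injured (8.97) and Silc1-/- sham ganglia (6.80).

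Sites farther from Fos were stronger than its start. An intergenic site at 12.2 kb downstream of the start had scores of 25.9, 47.2, 28.2 and 18.4 and percentiles of 81.0, 85.5, 81.9 and 78.6, and Fos was the gene with the nearest annotated start. The site at -18.4 kb, in the noncoding gene Gm38543, was likewise in all 4 lists (19.6, 26.0, 27.1 and 13.7). Distal enhancers on both sides of Fos are well known from neurons, where they respond to activity. Between the start and -18.4 kb, 2 loci were in both wild-type lists alone. These loci at -1.61 kb (8.73 in sham, 7.18 in injured) and at -5.08 kb (7.47 and 8.84) had their nearest Silc1-/- summits 1298 and 791 bp away. A locus at 14.0 kb was in both injured lists only (3.66 in wild type, 3.64 in Silc1-/-), 1769 bp from a sham summit, and 1 at 24.0 kb was missing from wild-type sham alone (scores of 3.09 to 3.63). These last scores are low, and at equal list lengths 1 locus of the whole set was left in both injured lists alone.

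Fosb lies in a gene-dense stretch between Vasp, Rtn2 and Ercc1. Its start had summits at -291, -296, -355 and -295 with scores of 8.80, 16.7, 10.1 and 12.3 in list order. A site in the gene body lay at 1384 in the first 3 of these lists, where it scored above the start (17.3, 28.7 and 24.5), and at 1291 in Silc1-/- injured ganglia, where it scored below it (9.31). Intergenic sites at -10.1 and -22.9 kb were in all 4 lists, the former with scores of 16.5 to 28.3. Wild-type injured ganglia had the most summits around Fosb, 19 against 13, 12 and 12, and 7 of the 23 loci were in that list alone, with scores of 2.68 to 6.93. Loci of the wild-type injured list alone made up 16.3% of the loci around all members and 16.3% of those near coding genes. This class was thus not more frequent around the members as a set. Past the end of the gene, by the noncoding gene Gm26802, the 2 injured lists had a locus at 9264 (5.43 and 2.24) and the 2 sham lists a locus at 8752 (3.09 and 3.59), 512 bp apart. The other locus of both injured lists lay in Vasp, at 44.0 kb (6.34 and 1.90).

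Fosl1, also called Fra-1, was the only member with no start or end summit in 2 lists. At its lower-numbered end (chromosome 19, position 5447698) wild-type injured ganglia alone had a summit, at 5447599 (score 3.84, percentile 34.2 of its list), and the nearest summit of another list was 9285 bp away. At the other end, which neighbours Ccdc85b, both wild-type lists had a weak locus (3.43 in sham, 1.97 in injured) that neither Silc1-/- list held, 589 bp from the nearest summit of those. The 8 loci of the neighbourhood found in all 4 lists lay at ends of other genes, among them Drap1, Ccdc85b, Fibp, Mus81 and Cfl1. The best locus away from gene ends lay inside Efemp2, 228 bp from an annotated start of that gene. It scored 4.60 in wild-type injured and 2.07 in Silc1-/- sham ganglia. Total counts of 13, 11, 13 and 10 summits therefore describe the neighbours more than Fosl1.

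Fosl2, or Fra-2, showed the largest difference between lists. It had 9 summits in wild-type injured ganglia and 3 in each other list. A locus upstream of the start was in every list, at -841 (14.6), -668 (23.1), -752 (18.9) and -710 (4.66). Its percentile was 59.8, 59.4 and 66.7 in the first 3 lists and 18.6 in Silc1-/- injured ganglia. The best site away from gene ends, at 61.5 kb, was in every list too (12.8, 7.44, 11.3 and 5.80). Wild-type injured ganglia alone had a summit at -48 (2.57) and a row of upstream summits at -13.9 kb (9.88), -23.8 kb (4.49), -24.0 kb (3.82) and -32.2 kb (5.69). The nearest summits of any other list lay 11258, 21120, 21360 and 29485 bp from these 4. Such loci of the wild-type injured list alone were as frequent near coding genes (16.3%) as around all members (16.3%). With the 9 wild-type injured summits scaled to list length, the log2 ratio of (scaled count + 1) was 0.77 against wild-type sham, and -1.08 for Silc1-/- injured against wild-type injured ganglia. At equal list lengths the counts were 3, 6, 2 and 2 and the ratios 0.81 and -1.22.

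Summits around neutrophil and macrophage markers were also most frequent in wild-type injured ganglia, but this was not particular to them. As deposited, 15 housekeeping genes likewise had the most summits there (79, 116, 106 and 78), and sensory neuron markers did not (31, 38, 68 and 37). After scaling to list length, the housekeeping sums were 112, 103, 85.1 and 84.5, highest in wild-type sham. Sensory neuron sums were highest in Silc1-/- sham (44.1, 33.6, 54.6 and 40.1). Scaled sums for Schwann and satellite glia markers were highest in wild-type injured ganglia (38.4, 46.0, 42.6 and 43.4). The same held for endothelial and mural markers (15.7, 21.2, 20.9 and 19.5). Around 6 neutrophil markers there were 12, 36, 19 and 12 summits in list order, and around 8 macrophage markers 23, 47, 31 and 29. Scaled to list length these sums were 17.1, 31.9, 15.3 and 13.01 for neutrophils and 32.7, 41.6, 24.9 and 31.4 for macrophages. From wild-type sham to injured, 4 of 6 neutrophil and 4 of 7 macrophage markers with a summit were at least 1.5-fold higher on the scaled count plus 1, against 18.9% of 19332 coding genes. For endothelial and mural markers this was 3 of 6, and for T and B cell markers 0 of 4, whose scaled sums were 27.04, 22.1, 18.5 and 18.4. Cxcr2 and Ly6g among the neutrophil markers, and Aif1, Csf1r, Cx3cr1, Adgre1, Cd68, Trem2 and C1qa among the macrophage markers, had no gene-end summit in any list. The part of these cells in the Fosl2 summits was not tested.

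Atf4 and Atf5 are regulated largely at translation during stress. The Atf4 start had summits at -81, -53, -82 and -33 with scores of 22.5, 37.3, 31.8 and 13.3 in list order, and percentiles of 76.7, 78.4, 85.9 and 66.0. Within the gene a locus with its best summit at 847 was in 3 lists (4.15, 7.04 and 3.85), and the nearest Silc1-/- injured summit was 880 bp away. The strongest site of the neighbourhood in the wild-type and Silc1-/- sham lists was at the start of Mief1, at -21.2 kb (45.7, 72.1, 38.0 and 21.7). Inside Mief1 a site near -14 kb was split by the joining rule. It lay at 80241262, 80240989 and 80241097 on chromosome 15 in wild-type sham, wild-type injured and Silc1-/- injured ganglia. The scores there were 13.8, 33.0 and 34.2. In Silc1-/- sham ganglia it lay at 80241582, 320 bp from the nearest of these summits (score 36.4).

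Atf5 has 2 annotated starts, and its summits lay between them. The shared locus was at 744, 758, 784 and 784 in list order, counted from the outer start, with scores of 14.4, 22.8, 22.2 and 8.68. This is upstream of the inner start at 44815658 on chromosome 7. An added summit at 399 was found in wild-type injured (11.8) and at 496 in Silc1-/- sham ganglia (3.63). Ends of Nup62 and Il4i1b also lie within 1 kb, so the locus is not assigned to Atf5. Toward Akt1s1, loci at -32.4 and -33.2 kb were held by every list but Silc1-/- injured, whose nearest summits were 422 and 1237 bp away. A locus at 39.2 kb in Vrk3 was in both injured lists only (3.18 and 3.61), and 1 at -23.0 kb in Il4i1 was in both wild-type lists only (4.74 and 7.86), the highest-scoring Atf5 site away from gene ends. In all, 8 of the 129 member loci (6.20%) were missing from Silc1-/- injured ganglia alone, against 3.40% of all loci; this class was singled out after its values were seen.

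**Figure D3:**
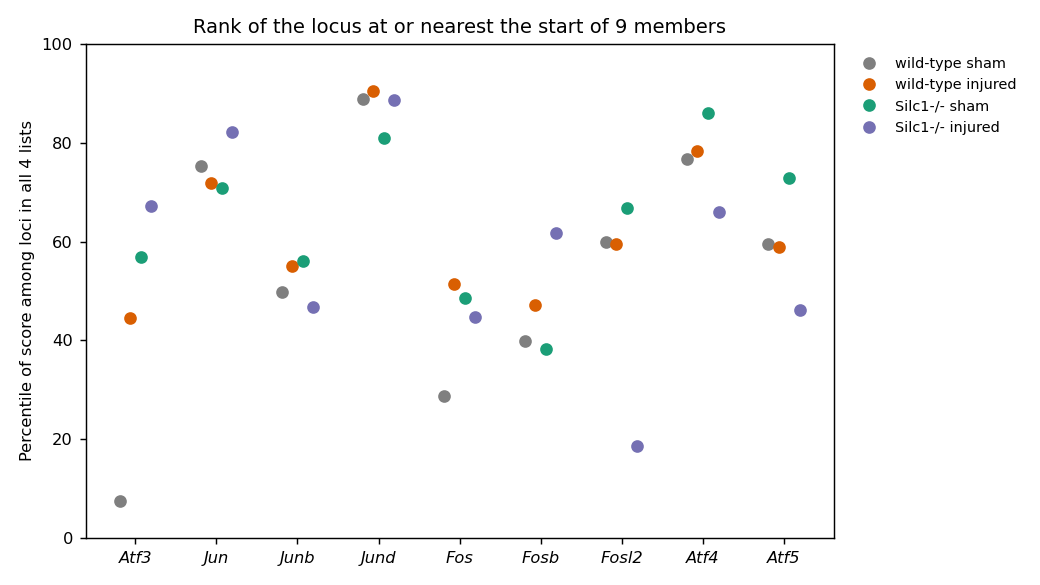
Percentile of the start locus score among the 14347 loci in all 4 lists, with 1 point per list, for every member but Fosl1. For Jund the site in the gene is shown, and for Fosl2 and Atf5 the shared locus nearest the start. Fosl1 had no locus at its own ends that all 4 lists held. Within Atf3 and Fos the lowest point is wild-type sham (7.47 and 28.7), and within Fosl2 it is Silc1-/- injured (18.6). The summits of the Atf3 locus span 329 bp, so its points may stand for different summits.

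Ranks of all 44 shared loci were compared in the same way. From sham to injury in wild type, 13 of 44 stood at least 10 percentile points higher and 5 at least 10 lower, where 22.7% and 22.5% of the 14347 shared loci did; the median difference was 2.43 points. In Silc1-/- ganglia 8 stood higher and 12 lower, against 26.3% and 29.9%, with a median of -3.88. Between the injured lists 22 of 44 stood at least 10 points lower in Silc1-/- than in wild type and 6 higher, against 32.2% and 27.9% of shared loci, with a median of -10.9. Between the sham lists 9 stood higher and 8 lower, against 25.3% and 25.6%. The comparisons share lists, so they are not separate observations, and all 4 lists were called on libraries of unknown depth.

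The 10 genes had 76, 97, 82 and 71 summits in list order, with medians per gene of 6, 9, 6 and 7, where the median coding gene had 2, 4, 4 and 3. As deposited, 7 members had more summits after injury in wild type and 1 fewer, against 71.7% and 8.67% of genes. In Silc1-/- ganglia 2 had more and 6 fewer, against 17.1% and 62.0%. With counts scaled to the mean list length these directions turned around, to 3 higher and 7 lower in wild type, against 43.7% and 56.3% of genes, and to 8 higher and 2 lower in Silc1-/- ganglia, against 54.2% and 45.8%. At equal list lengths they were 6 and 3 in wild type, against 37.8% and 28.9%, and 5 and 2 in Silc1-/- ganglia, against 29.8% and 38.3%. A direction for the set as a whole thus depends on how list length is treated, and none is given.

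Differences of at least 1.5-fold on the scaled count plus 1 were reached by 0 to 6 members per comparison and direction. In wild-type injury Fosl2 was higher and Atf3, Junb and Fosl1 lower, that is 1 and 3 of 10 against 18.9% and 11.5% of 19332 coding genes, with a median log2 ratio of -0.30 for the members and -0.07 for all genes. In Silc1-/- injury Jund was higher (0.78) and 0 were lower, against 14.6% and 16.3%, with medians of 0.10 and 0.02. Between the sham lists 6 of 10 were lower in Silc1-/- and 0 higher, against 20.6% and 17.1%, with medians of -0.59 and -0.17. These were Atf3, Junb, Fosb, Fosl1, Fosl2 and Atf5, and all 10 members had a ratio below 0 and 0 above, against 59.5% and 40.5% of genes. Unscaled, the direction turned: 6 members had more summits in Silc1-/- sham and 2 fewer, against 72.2% and 9.90% of genes. At equal lengths 1 had more and 6 fewer, against 33.2% and 35.8%. Between the injured lists 5 members had a higher and 5 a lower ratio, against 47.7% and 52.3% of genes, while unscaled 0 were higher and 9 lower, against 20.4% and 58.5%. At least 1.5-fold lower were Fosl2 and Atf5, and 0 were as much higher, against 17.9% and 14% of genes. The lower count of these 2 genes was seen under each of the 3 treatments of list length, at -0.75 scaled, -1 unscaled and -0.85 at equal lengths for Atf5. It was not particular to them: Fosb (-0.35, -0.62 and -0.58) and Jun (-0.02, -0.26 and -0.32) were also lower under all 3. Nor was it particular to injury for Atf5, which was lower between the sham lists too (-0.91, -0.19 and -1).

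**Figure D4:**
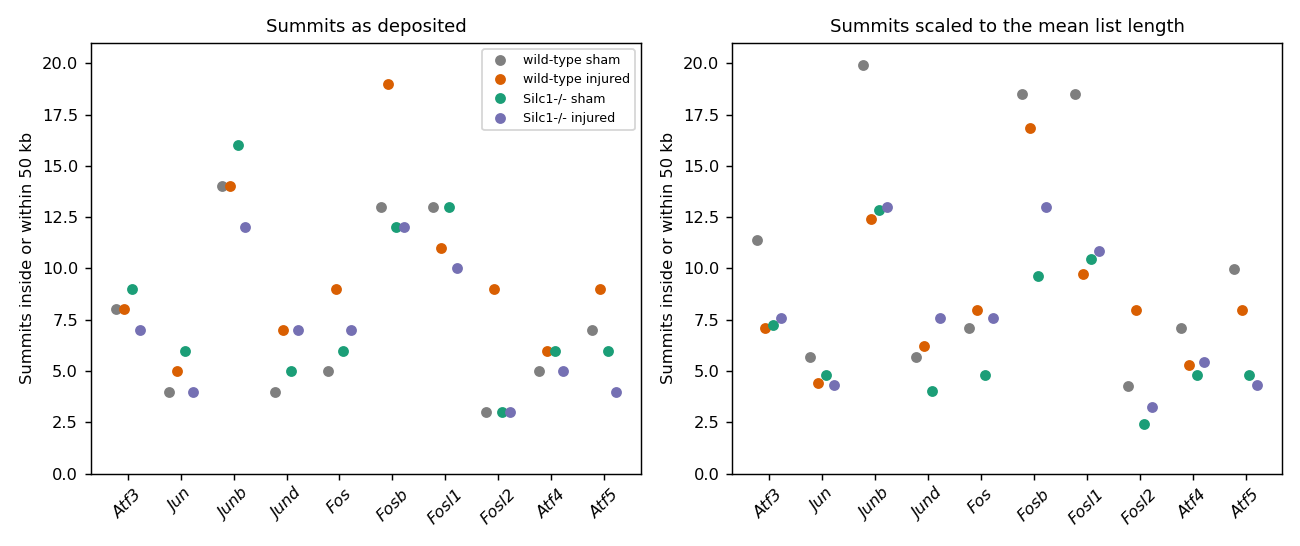
Summits inside or within 50 kb of each member in each list, as deposited on the left and scaled to the mean list length on the right. Fosl2 has 9 summits in wild-type injured ganglia and 3 in each other list, and scaling lifts the wild-type sham points of Junb, Fosb and Fosl1 above the rest.

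Related genes were taken from lists written for this work. Of 31 further leucine zipper genes, 22 had a gene-end summit in all 4 lists, against 40.8% of coding genes. Batf, Batf2 and Batf3, which act in lymphocytes and dendritic cells, had none in any. In wild-type injury 7 of the 31 were at least 1.5-fold higher and 1 lower on the scaled count plus 1, against 18.9% and 11.5% of genes. In Silc1-/- injury 0 were higher and 2 lower, against 14.6% and 16.3%. By the naming rule, Mafk, a small Maf partner of AP-1-like factors, had 2, 8, 6 and 6 summits in list order, and Bach2 had 6, 18, 19 and 19. At the other end of the list were Crem with 5, 5, 6 and 4 and Atf6b with 7, 8, 11 and 6. The genes of this list with counts most like those of Atf3 (8, 8, 9 and 7) were Atf6b, Nfe2l1 and Maff, with summed log2 differences over the 4 lists of 0.63, 0.63 and 0.66.

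Of 16 kinases and phosphatase subunits that act on Jun or upstream of Atf4, 12 had a gene-end summit in all 4 lists, against 40.8% of coding genes. Map3k13, Mapk10 and Mapk8ip1 had one in none. In wild-type injury 2 of the 16 were at least 1.5-fold higher and 2 lower, against 18.9% and 11.5% of genes. Eif2ak3, the PERK kinase of the endoplasmic reticulum, had 2, 6, 4 and 4 summits, and Ppp1r15b, which directs a phosphatase to the translation factor that PERK modifies, 2, 5, 4 and 3. Lowest in the ratio were Mapk8ip3, a JNK scaffold, with 7, 6, 10 and 7, and Mapk9, which encodes a JNK kinase, with 2, 2, 8 and 4. Among 22 injury-induced genes and Atf4 targets, many of them peptides or growth genes, 8 had a gene-end summit in all 4 lists, against 40.8% of coding genes. Another 8 had one in none, including Gal, Npy, Vip, Nts and Sprr1a, which are induced in injured sensory neurons. In wild-type injury 8 of the 19 with a summit were at least 1.5-fold higher and 2 lower, against 18.9% and 11.5% of genes. In Silc1-/- injury 3 were higher and 6 lower, against 14.6% and 16.3%. Hspb1, a small heat shock protein, had 3, 8, 7 and 8 summits, Cckbr, a cholecystokinin receptor, 2, 6, 4 and 4, and Ddit4, an inhibitor of mTOR signalling, 7, 11, 11 and 5. Of 15 housekeeping genes, 2 were at least 1.5-fold higher and 0 lower in wild-type injury, against 18.9% and 11.5% of genes.

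The border of the neighbourhood was placed at 50 kb. The outermost summit inside it was 49.6 kb from Fosb (wild-type sham, score 3.80), and for Atf3 the outermost lay at 49.3 kb (Silc1-/- injured, 31.3). The first summit outside it was 50.4 kb from Fosb (wild-type sham, 2.24), and for Atf5 the first lay at 52.6 kb (wild-type injured, 2.31).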

How the data were processed

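Lists of ATAC-seq summits, 1 for each of 4 groups of 3 libraries, were used. The submitters' processing notes name Bowtie2, MACS2 and build mm10. Versions, read filters, the transposase shift and any pooling of libraries are not stated there. In the deposited lists every summit has a score, the −log10 of a p-value or q-value from the authors' peak calling. Whether it is a p or a q is not stated, and files hold no read counts.

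Summits (1-based) inside or within 50 kb of a member were counted. Counts were scaled, where stated, so that each list had the mean length, and log2 ratios used a pseudocount of 1. Summits within 200 bp of the next were joined to loci. Genes and promoters came from RefSeq (GRCm38.p6). Promoters matched 9 of 10 members; Fosl1 was placed by its gene ends. With 1 list per group no test was possible. A fold of 1.5 and rank shifts of 10 points describe size only.

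All members were named. Of each related list, the rule took the 2 genes highest and the 2 lowest in wild-type injury among those with the same direction in Silc1-/- ganglia, and the text names a part of these. Members and lists were chosen with earlier results of these data known. Steps were tested on simulated data. Alternatives were joining distances, neighbourhoods, gene-end distances, score minimums, equal list lengths and, added after seeing the data, unscaled counts. The software was Python 3.11.15 with pandas 2.3.3, numpy 2.4.6 and, for plots, matplotlib 3.10.9.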

Additional observations from a re-analysis of the deposited data

Results flagged for a closer look

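For 5 members the scaled summit count pointed one way from sham to injury in wild type and the other way in Silc1-/- ganglia, and with 1 list per group these differences were not tested. The log2 ratio in Silc1-/- minus that in wild type was 0.68 for Atf3, 0.66 for Junb, 0.53 for Fosb, 0.91 for Fosl1 and 0.50 for Atf4. In each case the ratio was below 0 in wild type and above 0 in Silc1-/- ganglia. Unscaled, 0 of these 5 had that pair of directions, and Atf4 had the reverse pair, at 0.22 and -0.22. At equal list lengths Junb alone had it, at -0.21 in wild type and 0.26 in Silc1-/- ganglia.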

How the results depend on the processing

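No paired analysis was possible because each group has 1 list and no values per library, and for the same reason no fit leaving out a library was run. Of 131 alternative values, 59 stayed within 1.5 times the reported count and 72 did not; in the latter the cause was not tested.

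Summits around the members, 76, 97, 82 and 71 in wild-type sham, wild-type injured, Silc1-/- sham and Silc1-/- injured ganglia, numbered 33, 40, 32 and 28 within 10 kb, 124, 158, 133 and 112 within 100 kb, and 27, 43, 30 and 16 at scores of at least 10; at scores of at least 5, wild-type sham had 47 and Silc1-/- injured 40. At scores of at least 10, the wild-type sham list had gene-end summits for 5 members and the Silc1-/- injured list for 5.

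Loci in all 4 lists, 44 as reported, numbered 26 with summits joined within 50 bp, 21 within 10 kb, 68 within 100 kb and 13 at scores of at least 10. Loci in both injured lists alone, 5 as reported, numbered 1 within 10 kb, 1 at scores of at least 5, 0 at scores of at least 10 and 1 at equal list lengths. Loci in both sham lists alone, 3 as reported, numbered 5 with 50 bp, 1 within 10 kb, 7 within 100 kb, 0 at scores of at least 5, 1 at scores of at least 10 and 1 at equal lengths. Loci in both Silc1-/- lists alone, 3 as reported, numbered 0 within 10 kb, 6 within 100 kb, 1 and 0 at scores of at least 5 and 10, and 1 at equal lengths. Loci in both wild-type lists alone, 4 as reported, numbered 9 within 100 kb and 9 at equal lengths.

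Members higher and lower on the scaled count were 3 and 7 for wild-type injury, 8 and 2 for Silc1-/- injury, 0 and 10 for Silc1-/- against wild type in sham, and 5 and 5 in injured ganglia. In that order the counts were 7 and 1, 2 and 6, 6 and 2, and 0 and 9 unscaled; 6 and 3, 5 and 2, 1 and 6, and 3 and 6 at equal lengths; and 6 and 4, 3 and 7, 2 and 8, and 2 and 8 at scores of at least 10. With a 1.5-fold minimum they were 1 and 3, 1 and 0, 0 and 6, and 0 and 2. At scores of at least 5, Silc1-/- injury gave 4 and 6, the sham comparison 2 higher and the injured comparison 3 higher. Within 10 kb the sham comparison gave 1 higher and the injured one 3 higher, and within 100 kb the injured one gave 3 higher. Without scaling, the median of all coding genes moved from -0.07 to 0.42 in wild-type injury, from 0.02 to -0.32 in Silc1-/- injury, from -0.17 to 0.49 between sham lists and from -0.02 to -0.26 between injured lists.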
